A study of Mus musculus with 165 samples.

Results

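The 10 genes described here, Nr4a1, Nr4a2, Nr4a3, Ier2, Ier3, Ier5, Btg1, Btg2, Zfp36 and Srf, are immediate-early genes other than the AP-1 and EGR factors. They were chosen by symbol, and all 10 were found among the 36255 genes of the normalized count table. The table holds RNA-seq of PUER cells, an interleukin-3 (IL3) dependent progenitor line from Spi1-/- mice. The labels give its origin as bone marrow, while the study names fetal liver in one place and bone marrow in another. The cells lack endogenous PU.1 and carry a fusion of PU.1 with the part of the estrogen receptor that binds its ligand, and 4-hydroxytamoxifen (OHT) switches this fusion on. The results describe 1 line, and its undifferentiated cells already carry the fusion. There were 56 groups, 53 with 3 libraries each and 3 (GCSF 96h, 112h and 152h) with 2.

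Undifferentiated cells were kept in 5 ng/ml IL3 without OHT. In the IL3 course these cells received 200 nM OHT in the same cytokine and were sampled between 1h and 168h. In the GCSF course, cells were first washed and kept for 48 h without OHT in granulocyte colony-stimulating factor (GCSF). In this medium 10 ng/ml GCSF replaced the IL3. The cells at the end of this pre-treatment are called GCSF 0h. They then received 100 nM OHT in GCSF. The OHT dose therefore differed between the media, and a difference between the media cannot be told apart from a difference in dose. Fresh OHT was added with new medium at 40h, 88h and 136h, so that the libraries of 48h, 96h and 144h followed such a change by 8 h. Cells were detached with trypsin at every time point after 24h. The methods do not say whether the undifferentiated cells were taken before or after the 48 h that the other cells spent in GCSF.

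Immediate-early genes are transcribed within minutes of a stimulus, without new protein synthesis, and their mRNAs usually decay quickly. Growth factors, cytokines, adhesion and stress reach them through MAP kinases, SRF with its ternary complex factor and MRTF partners, CREB and NF-kappaB. Their products act in different ways. Nr4a1, Nr4a2 and Nr4a3 encode orphan nuclear receptors. Ier2, Ier3 and Ier5 encode small unrelated or loosely related regulators, of which Ier3 is known for its part in apoptosis and Ier5 for activating the heat shock factor HSF1. Btg1 and Btg2 are antiproliferative adaptors that bind the CCR4-NOT deadenylase. Zfp36, or tristetraprolin, binds AU-rich elements in cytokine mRNAs and brings the same deadenylase to them. Srf encodes the serum response factor itself, which binds CArG boxes. In myeloid cells the family is known for its response to cytokines and to bacterial products.

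Sequences that SRF and CREB are known to bind were looked for in the RefSeq promoters (GRCm38.p6), which were at hand for 9 of the 10 genes, Ier2 being the exception. The 250 bases before each RefSeq start were searched on both strands. The CArG box was found in 2 of the 9 genes, Zfp36 and Srf, and in 1.4% of all 27025 promoters. Srf held 2 such boxes. They are in capitals below, and the distances are from the RefSeq start. The stretch of Zfp36 (chr7:28379267-28379296, minus strand, bases -68 to -39) lies in the first exon of a longer annotated transcript, and the stretch of Srf (chr17:46556193-46556292, minus strand, bases -130 to -31) lies upstream of the gene.
Zfp36: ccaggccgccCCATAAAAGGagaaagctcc
Srf: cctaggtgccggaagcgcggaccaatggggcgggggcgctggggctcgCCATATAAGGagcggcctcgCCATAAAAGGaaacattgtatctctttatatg

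The cAMP response element TGACGTCA was found in 1 of the 9, Btg2, and in 1.62% of all promoters. Its core TGACG, which the whole element contains, was found in 6 of the 9 (the 3 Nr4a genes, Btg1, Btg2 and Srf) and in 17.9% of all promoters. The Nr4a genes held 4 copies each. The stretches below show the element of Btg2 (chr1:134079256-134079355, minus strand) and the copies of the core, on either strand, in Nr4a1 (chr15:101266596-101266845, plus strand, in an intron of the longest annotated transcript), Nr4a2 (chr2:57124094-57124213, minus strand) and Nr4a3 (chr4:48045055-48045149, plus strand). For Nr4a3 the stretch ends before the annotated transcript and leaves out 1 copy.
Btg2: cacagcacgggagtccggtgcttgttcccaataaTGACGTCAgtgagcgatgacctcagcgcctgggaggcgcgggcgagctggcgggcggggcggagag
Nr4a1: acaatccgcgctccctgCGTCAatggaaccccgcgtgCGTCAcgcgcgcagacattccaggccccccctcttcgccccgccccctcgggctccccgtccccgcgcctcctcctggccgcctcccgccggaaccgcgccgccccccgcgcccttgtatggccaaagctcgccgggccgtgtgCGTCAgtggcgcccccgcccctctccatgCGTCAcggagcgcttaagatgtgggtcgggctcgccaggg
Nr4a2: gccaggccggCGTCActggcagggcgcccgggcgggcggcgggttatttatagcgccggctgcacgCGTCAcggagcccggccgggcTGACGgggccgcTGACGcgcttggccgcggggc
Nr4a3: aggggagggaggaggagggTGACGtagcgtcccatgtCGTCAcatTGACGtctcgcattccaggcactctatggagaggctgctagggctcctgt

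Of the other motifs searched, the AP-1 site TGANTCA was found in 0 of the 9 and in 6.87% of all promoters. The letters GAGGAA, the core of a PU.1 site, were found in Ier3 and Btg2 and in 23.1% of all promoters. An NF-kappaB site was found in Ier3 (3.75% of all promoters) and a p53 site, in its single-repeat form, in Ier5 (7.18%). GGGCGG was found in all 9 genes and in 32.9% of all promoters, TATAAA in Nr4a2, Btg1 and Srf (13% of all promoters), and CCGGAAG in Zfp36 and Srf (7.05%). These matches are descriptions of letters in a window, and no binding was measured here.

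In the GRCm38 assembly (GENCODE M21) Nr4a1 spans chr15:101254269-101274795, Nr4a2 chr2:57106830-57124003 and Nr4a3 chr4:48045153-48086447. Ier2 spans chr8:84661331-84662852, Ier3 chr17:35821684-35822923 and Ier5 chr1:155096361-155099636. Btg1 spans chr10:96617006-96622809, Btg2 chr1:134075170-134079120, Zfp36 chr7:28376784-28380253 and Srf chr17:46548329-46556175. Values below are over the gene as a whole.

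The libraries held between 14600246 and 33147945 reads assigned to genes (median 21960878). A value is a normalized count, that is, reads divided by the library's size factor, and a limit of 3 reads corresponds to a normalized count of 1.96 to 5.51. Spi1 lay between 4482 and 13387 in every library, but the fusion carries its coding sequence and this does not check the deletion. The progenitor marker Cd34 was at 3 reads or fewer in the undifferentiated and GCSF 0h libraries, while the sum of 4 progenitor markers was between 11239 and 12503 in the undifferentiated libraries. The libraries of IL3 96h and 144h, which the study set aside as outliers, were kept out of all fits except those for these times. All 10 genes were tested with limma across 17414 genes on log2(normalized count + 1), a scale that understates the change of low genes. A gene was called where the adjusted p (Benjamini-Hochberg) was under 0.05 and the log2 fold change was also beyond 0.58 in size. The spread is between libraries described as biological replicates of 1 line. Per the methods the cells of each time point had their own plate, so time point and plate cannot be told apart. Whether the replicates came from separate differentiations is not stated.

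After the 48 h in GCSF without OHT, all 10 genes were called lower than in undifferentiated cells. Of all genes 33.7% were called in either direction and 20.7% were called lower. Loss of IL3, gain of GCSF, washing and time in culture cannot be told apart in this comparison. The largest drops were in Nr4a1, Ier5, Btg1 and Btg2, each with a log2 fold change below -3. Nr4a1, an orphan receptor, had normalized counts of 107, 82.8 and 88.6 in the undifferentiated libraries and of 4.62, 7.08 and 4.66 at GCSF 0h, and fell by 3.88 ± 0.35 (SE) on the log2 scale (limma, adjusted p = 6.257e-19). Nr4a3 went from 40.6, 47.1 and 60.3 to 7.39, 6.20 and 10.3. For both receptors the groups did not overlap.

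Ier5 and Btg1 fell nearly as far. Ier5 had 10110.5, 9309 and 10113 in the undifferentiated libraries and 968, 933 and 940.4 at GCSF 0h, a log2 fold change of -3.38 ± 0.10 (limma, adjusted p = 4.047e-59). Btg1 went from 10214, 10810.3 and 11088 to 1259.6, 1081 and 1059.7, a change of -3.24 ± 0.09 (limma, adjusted p = 5.509e-62). Its relative Btg2 went from 113, 93.1 and 112 to 15.7, 15.9 and 6.52. Ier3 had a log2 fold change of -1.98, and the remaining 4 genes changed by between -0.79 and -0.98, namely Ier2 (-0.98), Srf (-0.89), Nr4a2 (-0.83) and Zfp36 (-0.79). The median over the 10 genes was -2.24, and that over all genes tested was -0.09.

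The other immediate-early lists moved the same way. Of 11 AP-1 factors tested, 9 fell and 1 rose, with log2 fold changes of -8.05 for Fosb, -5.26 for Atf3, -3.20 for Maff and -2.67 for Jund. All 6 EGR factors and NAB corepressors fell, Egr3 by -6.81, Egr2 by -3.64 and Nab2 by -2.90. Among 9 genes of MAP kinase feedback, 7 fell and 1, Dusp2, rose (2.09). Of 31 further immediate-early genes, 22 fell and 0 rose, among them Ptgs2 (-4.34) and Bhlhe40 (-2.99). The SRF-MRTF cytoskeletal targets fell in 9 of 11 cases and rose in 1, with -2.60 for Tpm4 and -2.25 for Zyx. All 8 mRNAs with AU-rich elements fell, including Cxcl2 (-4.63) and Ccl3 (-2.68). Ptgs2 is in this list and also among the further immediate-early genes, so these lists overlap. Of 9 further p53 targets, 6 fell, Mdm2 by the most (-2.27). Of the 10 subunits of the CCR4-NOT deadenylase, 9 did not pass the test and Cnot9 rose (0.80).

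**Figure D1:**
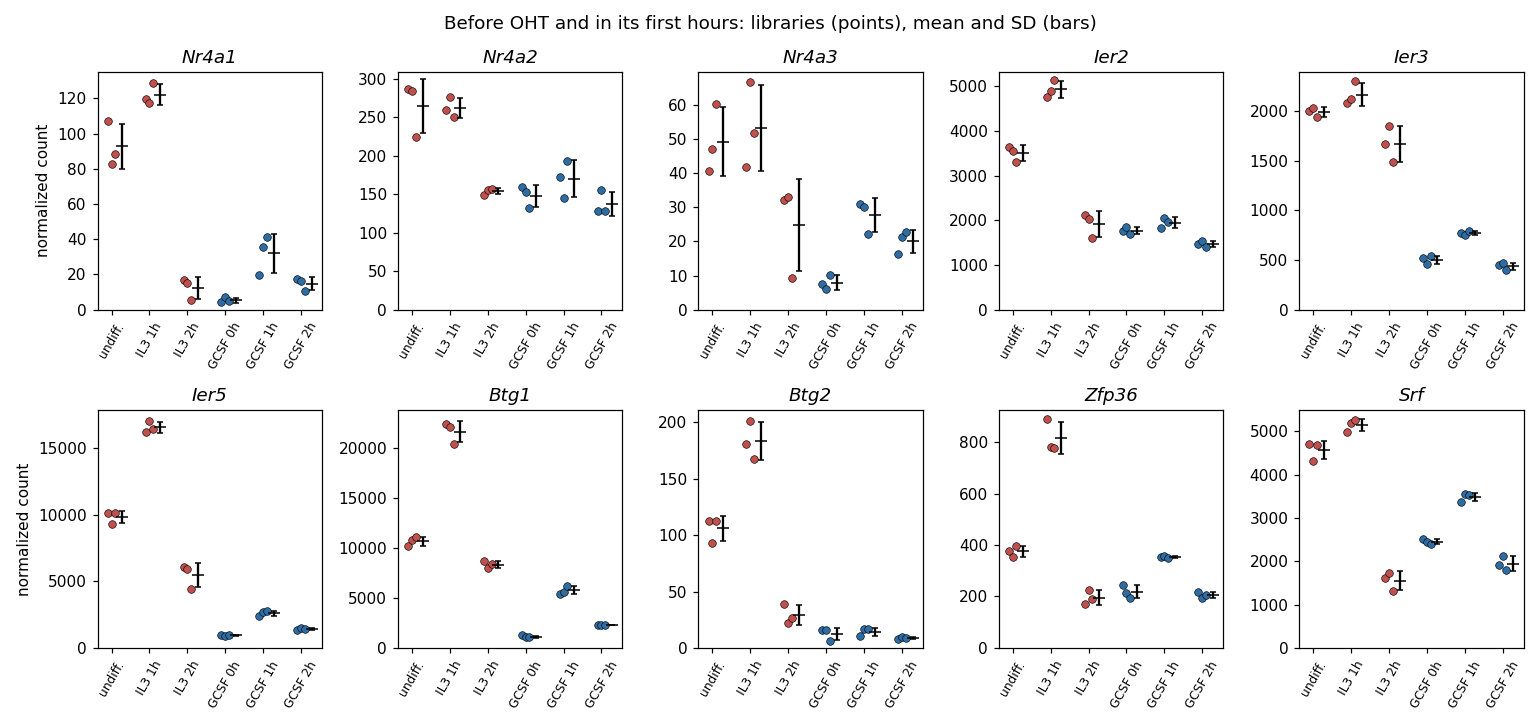
Normalized count (y axis, linear from 0) of each of the 10 genes in the libraries of 6 groups (x axis): undifferentiated, IL3 1h and IL3 2h in red, GCSF 0h, 1h and 2h in blue. Points are libraries and bars are the mean with its SD (n = 3). The undifferentiated libraries lie above the GCSF 0h libraries for all 10 genes. The drop between IL3 1h and 2h was called for 9 genes, and that of Ier3 was under the threshold of size.

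The first hour of OHT was read against cells of the same medium. No group at 1h was handled alike without OHT, so OHT and the handling at its addition cannot be told apart. Per the methods the IL3 cells were seeded in plates 48 h before OHT. If the undifferentiated cells were taken before that, the first hour in IL3 also holds the seeding and these 48 h. The difference of the first-hour effect between the media would then hold them too. In IL3, 3 of the 10 genes rose and 0 fell, where 4.42% of all genes were called. Zfp36 had 377, 354 and 397 in the undifferentiated libraries and 888, 779 and 779 at IL3 1h, a log2 fold change of 1.11 ± 0.08 (limma, adjusted p = 1.241e-22). Btg1 reached 22411, 22153 and 20436 with a log2 fold change of 1.02 ± 0.09 (limma, adjusted p = 3.026e-18). Ier5 reached 16208, 17077 and 16454, a change of 0.75 ± 0.10 (limma, adjusted p = 5.184e-10). The 3 genes did not overlap with their undifferentiated values.

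The other 7 did not pass both thresholds in IL3. Ier2 had a log2 fold change of 0.49 with an adjusted p of 1.551e-06 in limma, under the threshold of size. Btg2 had 181.1, 201.2 and 168 against 113, 93.1 and 112, a change of 0.79 ± 0.38 that missed the test (limma, adjusted p = 0.149) but was called by edgeR and DESeq2 (adjusted p = 0.0438 and 0.0104). The 3 Nr4a receptors had changes of 0.40 (Nr4a1), -0.01 (Nr4a2) and 0.11 (Nr4a3), Srf of 0.17 and Ier3 of 0.12.

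In GCSF, 6 of the 10 genes rose in the first hour and 0 fell, where 6.05% of all genes were called. Btg1 had 1259.6, 1081 and 1059.7 before OHT and 5437, 5641 and 6229 at 1h, a log2 fold change of 2.35 ± 0.09 (limma, adjusted p = 2.506e-47). Nr4a1 had 19.6, 35.4 and 41.1 at 1h against 4.62, 7.08 and 4.66, a change of 2.31 ± 0.35 (limma, adjusted p = 2.774e-08). Nr4a3 had 30.9, 30.2 and 22.2 against 7.39, 6.20 and 10.3, a change of 1.70. Each of these 3 genes had no overlap between the groups. Ier5 (1.46), Zfp36 (0.70) and Ier3 (0.61) were the other genes that rose. Srf had a change of 0.50 with an adjusted p of 2.017e-05 in limma, under the threshold of size, and Nr4a2 (0.19), Ier2 (0.14) and Btg2 (0.24) did not pass. Without replicate 2 of every group Nr4a3 (1.49, limma, adjusted p = 0.108) and Ier3 (0.57) were no longer called.

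Even after this rise the group means at GCSF 1h stayed under those of undifferentiated cells for all 10 genes. For Zfp36 the libraries overlapped (354, 357 and 351 at GCSF 1h against 377, 354 and 397). Btg1, for instance, had a mean of 5769 at GCSF 1h and of 10704 in undifferentiated cells. The pre-treatment and the first hour in GCSF share the GCSF 0h libraries, and the pre-treatment and the first hour in IL3 share the undifferentiated ones, so these comparisons are not independent of each other.

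The first-hour effect itself differed between the media for 3 genes, where 2.81% of all genes were called. The excess in GCSF was 1.92 ± 0.49 for Nr4a1, 1.33 ± 0.12 for Btg1 and 0.71 ± 0.14 for Ier5 on the log2 scale (limma, adjusted p = 0.00428, 4.869e-16 and 8.55e-05). Without replicate 3 of every group the difference of Nr4a1 was 1.69 and no longer passed (limma, adjusted p = 0.105). Nr4a3 had a difference of 1.59 ± 0.67 that did not pass (limma, adjusted p = 0.146) and that edgeR called (adjusted p = 0.0449). Zfp36 (-0.41), Ier2 (-0.35) and Ier3 (0.49) had adjusted p under the threshold but were under the threshold of size. These differences were measured from unequal starting levels. The means before OHT were 5.45 in GCSF and 92.9 in IL3 for Nr4a1, 1133 and 10704 for Btg1, and 947 and 9844 for Ier5.

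The first hour moved the other immediate-early lists too. Of 11 AP-1 factors, 8 rose in each medium and 0 fell. In GCSF the log2 fold changes were 6.99 for Fosb, 3.90 for Atf3, 2.61 for Jun and 2.60 for Fos, and in IL3 they were 1.17 for Fos, 1.14 for Maff and 1.11 for Jun. Of the 31 further immediate-early genes 13 rose in IL3 and 19 in GCSF, and 0 fell in either. The mRNAs with AU-rich elements rose in 5 of 8 cases in IL3 and in 7 of 8 in GCSF, including Il1b (2.79 and 2.91). Of the SRF-MRTF targets, 0 of 11 were called in IL3 and 5 of 11 rose in GCSF, led by Filip1l (2.18). Of the CCR4-NOT subunits 0 of 10 were called in either medium, and of the 8 heat shock genes 0 in IL3 and 1, Hspb1, in GCSF (1.82).

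Between 1h and 2h the genes fell together. In IL3, 9 of the 10 were called lower, all but Ier3, where 15.2% of all genes were called and 8.83% were called lower. Nr4a1 dropped from 119.7, 117.5 and 128.8 to 16.8, 15.4 and 5.36, a log2 fold change of -3.32 ± 0.35 (limma, adjusted p = 7.031e-15). Btg2 dropped from 181.1, 201.2 and 168 to 39.1, 22.01 and 26.8, a change of -2.64 ± 0.38 (limma, adjusted p = 2.344e-09). Zfp36 dropped from 888, 779 and 779 to 171.9, 227 and 188.8, a change of -2.06 ± 0.08 (limma, adjusted p = 4.78e-45). In each of these the values of 2h lay under all values of 1h and also under all undifferentiated values.

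Srf, the transcription factor, went from 4990.4, 5187 and 5261 to 1607, 1729 and 1304, a log2 fold change of -1.74 ± 0.10 (limma, adjusted p = 6.973e-32). Ier5 fell by 1.61, Btg1 by 1.38, Ier2 by 1.37, Nr4a3 by 1.23 and Nr4a2 by 0.76 on the log2 scale. The drop of Nr4a3 was no longer called without replicate 2 (-1.36) or replicate 3 (-0.68). Ier3 had 2077, 2122 and 2300.2 at 1h and 1670.1, 1852 and 1492 at 2h, a change of -0.38 that was under the threshold of size. The median over the 10 genes was -1.49, against -0.03 over all genes tested.

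In GCSF 6 of the 10 fell over the same hour, where 5.19% of all genes were called and 2.3% were called lower. They were Btg1 (-1.32), Nr4a1 (-1.03), Ier5 (-0.87), Srf (-0.84), Ier3 (-0.81) and Zfp36 (-0.78). Btg1 went from 5437, 5641 and 6229 to 2294, 2309 and 2297 (limma, adjusted p = 5.75e-26). The drop from 1h to 2h was smaller in GCSF than in IL3 for 6 genes by the test of the difference, which was chosen after the steps had been seen and which called 6.39% of all genes. These were Nr4a1 (2.29 ± 0.49), Btg2 (2.01 ± 0.54), Zfp36 (1.28 ± 0.12), Ier2 (0.96 ± 0.12), Srf (0.90 ± 0.14) and Ier5 (0.73 ± 0.14). The call of Btg2 was lost without replicate 2 (1.83, limma, adjusted p = 0.0556), and the drop of Nr4a1 in GCSF was not called without replicate 2 (-1.02) or 3 (-0.62). For Btg1 the difference between the media was 0.05 ± 0.12 (limma, adjusted p = 0.843).

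Among the other lists in the same hour, 10 of 11 AP-1 factors fell in IL3 and 8 of 11 in GCSF, led by Fosb (-3.53 and -2.90). Plk3, a stress kinase, had changes of -2.80 and -2.93, and Egr1 of -3.19 and -2.06. Of the 31 further immediate-early genes, 13 fell and 1 rose in IL3, and 12 fell and 1 rose in GCSF. Of the 9 p53 targets, 5 fell in IL3 and 0 in GCSF. Of the 11 SRF-MRTF targets 0 were called in either medium.

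**Figure D2:**
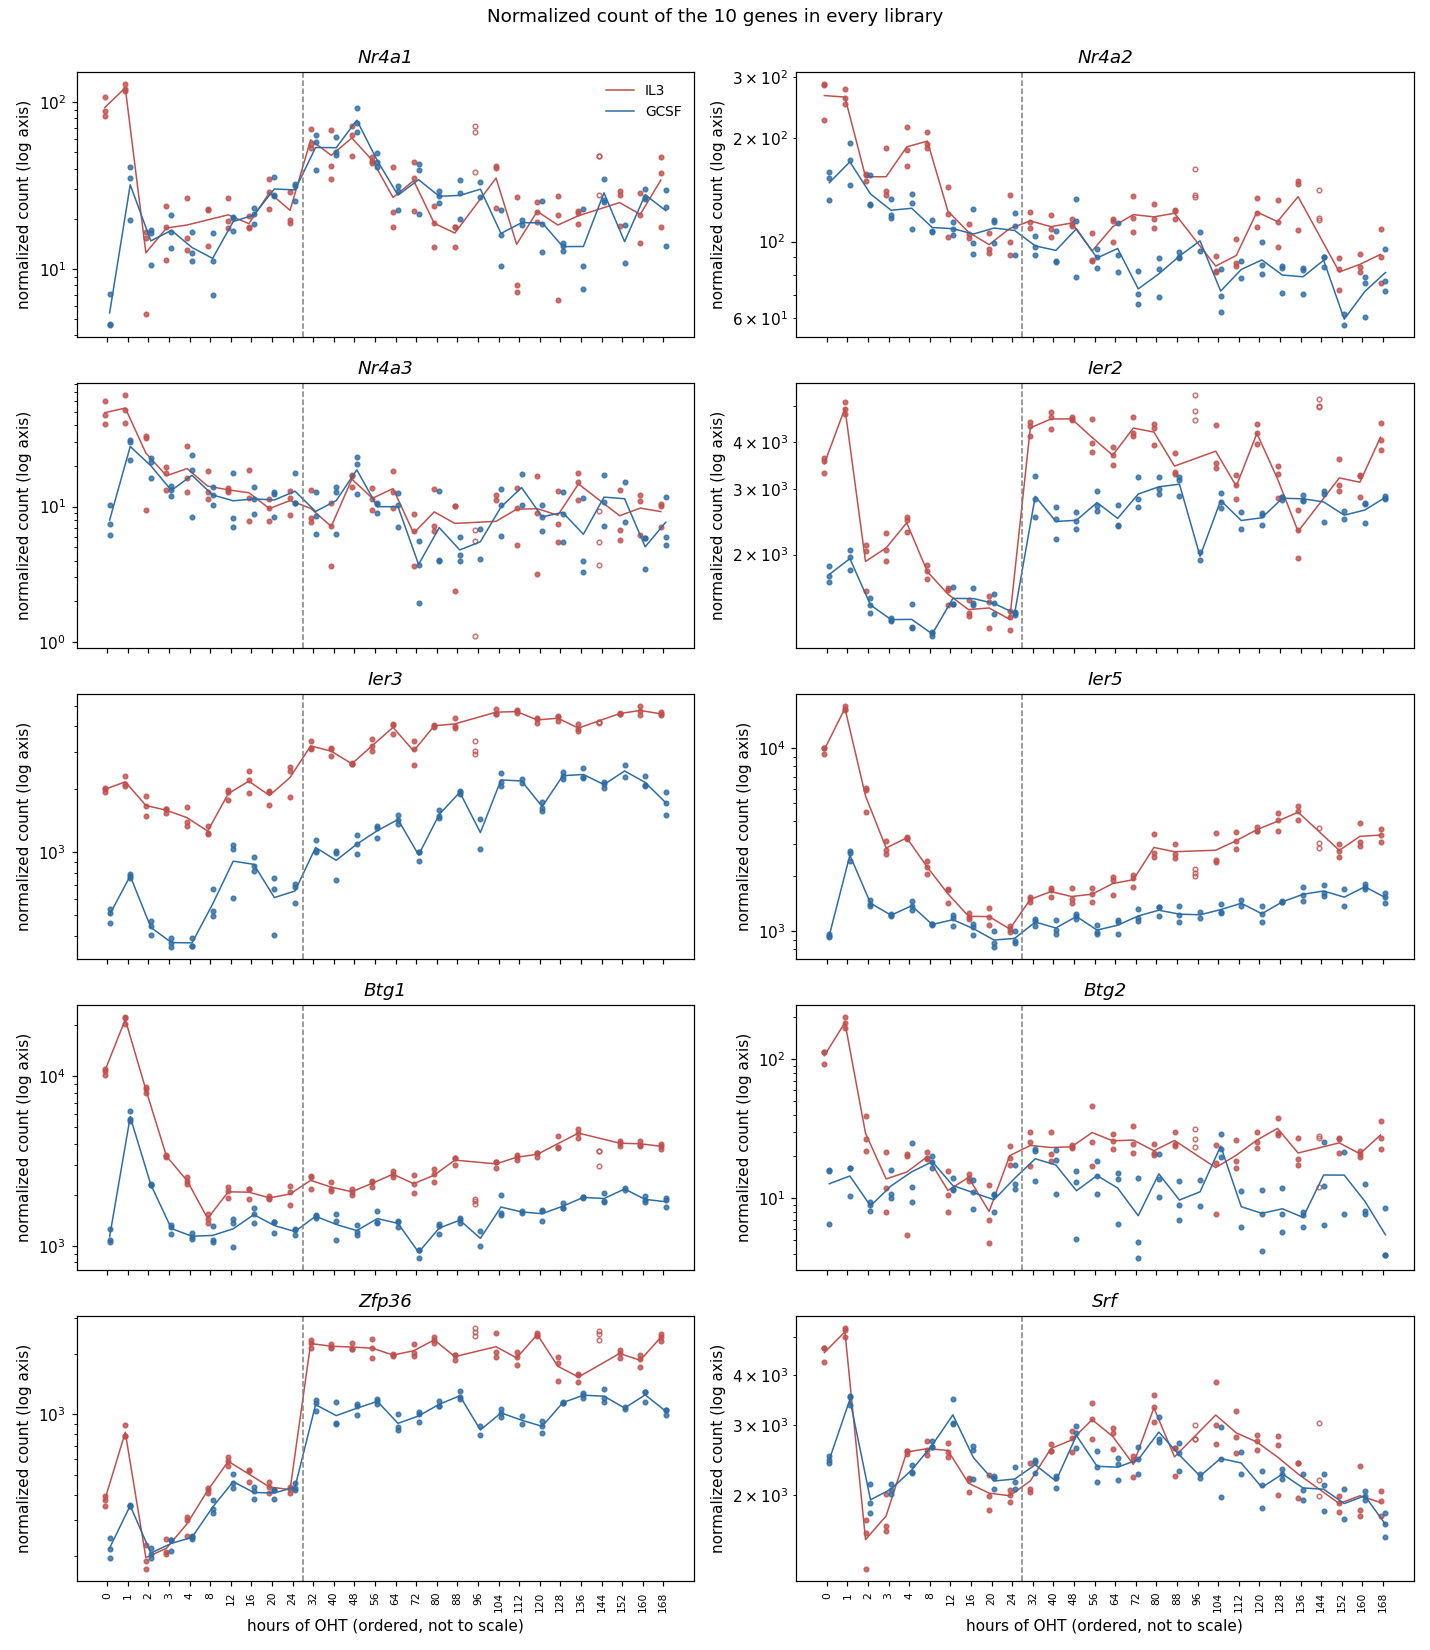
Normalized count (y axis, log scale) of each gene in every library against hours of OHT (x axis, ordered and not to scale), IL3 in red and GCSF in blue, with lines through group means. The first position holds the undifferentiated libraries in red and the GCSF 0h libraries in blue. Open circles are the IL3 96h and 144h libraries, and the dashed line marks the start of trypsin detachment after 24h. The library of IL3 104h in which Nr4a3 had 0 reads is not drawn. Ier2 and Zfp36 step up at the dashed line in both media, and Ier3 is lower in GCSF throughout.

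After 2h the 10 genes went different ways. In IL3 Btg1 went on falling, from a mean of 8347 at 2h to 1454 ± 91.3 (SD, n = 3) at 8h. Ier5 fell from 5497 to 1029.6 ± 36.5 (SD, n = 3) at 24h, its lowest mean in the course. Its fall was not steady, with means of 2853 at 3h and 3243 at 4h, a step with 0 calls among the 10 genes. Zfp36 had its lowest mean in IL3 at 2h, 195.8 ± 28.03 (SD, n = 3), then means of 421 at 8h, 586 at 12h, 507 at 16h and 425 at 24h, with 0 of the single steps between 2h and 24h called. The step from 2h to 3h in IL3 held 3 calls, all lower, where 8.41% of all genes were called. These were Btg1 (-1.30), Btg2 (-1.10) and Ier5 (-0.94), of which Btg2 was no longer called without replicate 1 (-1.24, limma, adjusted p = 0.0524) or 3 (-0.83, limma, adjusted p = 0.159). Ier3 reached its lowest mean at 8h in IL3 (1261 ± 57.7) and at 4h in GCSF (369 ± 19.2). In GCSF it was called higher from 4h to 8h, to a mean of 565, where 5.29% of all genes were called. Ier3 rose from 8h to 12h in both media, by a log2 fold change of 0.59 ± 0.12 in IL3 and 0.65 ± 0.12 in GCSF (limma, adjusted p = 1.235e-05 and 6.845e-06). It was the only one of the 10 called higher at this step in either medium, where 6.31% of all genes were called in IL3 and 2.67% in GCSF. In IL3 Nr4a2 was called lower there (-0.68). Without replicate 1 both IL3 calls fell under the threshold of size (0.54 for Ier3 and -0.52 for Nr4a2), and without replicate 2 so did Ier3 in GCSF (0.41).

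By 24h, still without trypsin, 8 of the 10 genes were lower than in undifferentiated IL3 cells, and Ier3 (0.17) and Zfp36 (0.18) were not called. Here 28.4% of all genes were called. Ier5 had 1034, 1064 and 991 (log2 fold change -3.26) and Srf 2058, 1998 and 1924 (-1.19). In GCSF, 2 of the 10 were higher at 24h than at GCSF 0h and 0 were lower, where 10.3% of all genes were called. Nr4a1 had 32.5, 25.5 and 31.4 (a change of 2.27), and Zfp36 had 430, 457 and 424 (1.00). Against undifferentiated cells 9 of the 10 were lower at GCSF 24h, all but Zfp36 (0.22), where 34.6% of all genes were called. These comparisons within 24h were chosen after the values had been seen.

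After 8h, the step from 24h to 32h held the most calls of the 10 genes in each medium. All 3 called in each medium rose, where 0.356% of all genes were called in IL3 and 0.172% in GCSF. Zfp36, the mRNA-decay factor, had 409, 438 and 427 at IL3 24h and 2337, 2248 and 2141 at IL3 32h, a log2 fold change of 2.40 ± 0.08 (limma, adjusted p = 1.303e-50). In GCSF it went from 430, 457 and 424 to 1173, 1136 and 1044, a change of 1.35 ± 0.08 (limma, adjusted p = 3.363e-28). Ier2 went from 1258, 1408 and 1358 to 4430.1, 4159 and 4516 in IL3 (1.70 ± 0.08) and from 1399, 1376 and 1405 to 3254, 2809 and 2529 in GCSF (1.03 ± 0.08). The groups of 24h and 32h did not overlap for either gene in either medium.

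The third called gene was Nr4a1 in IL3, with 28.9, 18.8 and 19.7 before the step and 53.2, 68.8 and 56.5 after it (1.38 ± 0.35, limma, adjusted p = 0.0107). In GCSF the third was Ier3, with 573, 680.1 and 706 before and 1140, 1003 and 1016 after (0.69 ± 0.12, limma, adjusted p = 2.176e-05). The rise of Zfp36 and that of Ier2 were smaller in GCSF than in IL3, by -1.05 ± 0.12 and -0.67 ± 0.12 (limma, adjusted p = 9.716e-11 and 6.114e-04), a test chosen after the steps had been seen, in which 9 genes of all those tested (0.0517%) were called. The difference of Ier2 was no longer called without replicate 1 or 3 (-0.71 and -0.57, limma, adjusted p = 0.0619 and 0.122). For Nr4a1 and Ier3 the difference between the media did not pass (-0.58 ± 0.49 and 0.18 ± 0.16). The rise of Nr4a1 in IL3 was not called without replicate 2 (1.17) or 3 (1.34), nor that of Ier3 in GCSF without replicate 1 (0.54).

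At the same step 4 of 11 AP-1 factors, 2 of 6 EGR and NAB genes and 1 of 9 genes of MAP kinase feedback (Dusp1) rose in each medium, and 0 genes of these lists fell. Of the 31 further immediate-early genes 5 rose in IL3 and 1 in GCSF. Fosb changed by 6.33 in IL3 and 5.16 in GCSF, Fos by 3.13 and 2.67, Egr1 by 3.12 and 3.66, Dusp1 by 2.17 and 1.98, Junb by 1.46 and 1.17, and Jun by 1.07 and 0.91, all called. Of 8 mRNAs with AU-rich elements 4 rose in each medium (Cxcl2, Ccl3, Ptgs2 and Tnf). Of the SRF-MRTF targets 0 of 11, of the p53 targets 0 of 9 and of the heat shock genes 0 of 8 were called in either. Srf itself had changes that were not called, with 2058, 1998 and 1924 before and 2406, 2035 and 2074 after in IL3.

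This step is also the one at which detachment with trypsin began. Time after 24h and this handling cannot be told apart in these libraries, since no cells after 24h were collected without trypsin. The same holds for every comparison below between a time after 24h and an earlier one. Within the libraries taken with trypsin Zfp36 had a log2 fold change of 0.10 from IL3 32h to 168h and of -0.11 from GCSF 32h to 168h. Between these ends its group means ran from 1531 (136h) to 2485 (120h) in IL3, or to 2562 with IL3 96h included, and from 838 (96h) to 1249.8 (160h) in GCSF.

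**Figure D3:**
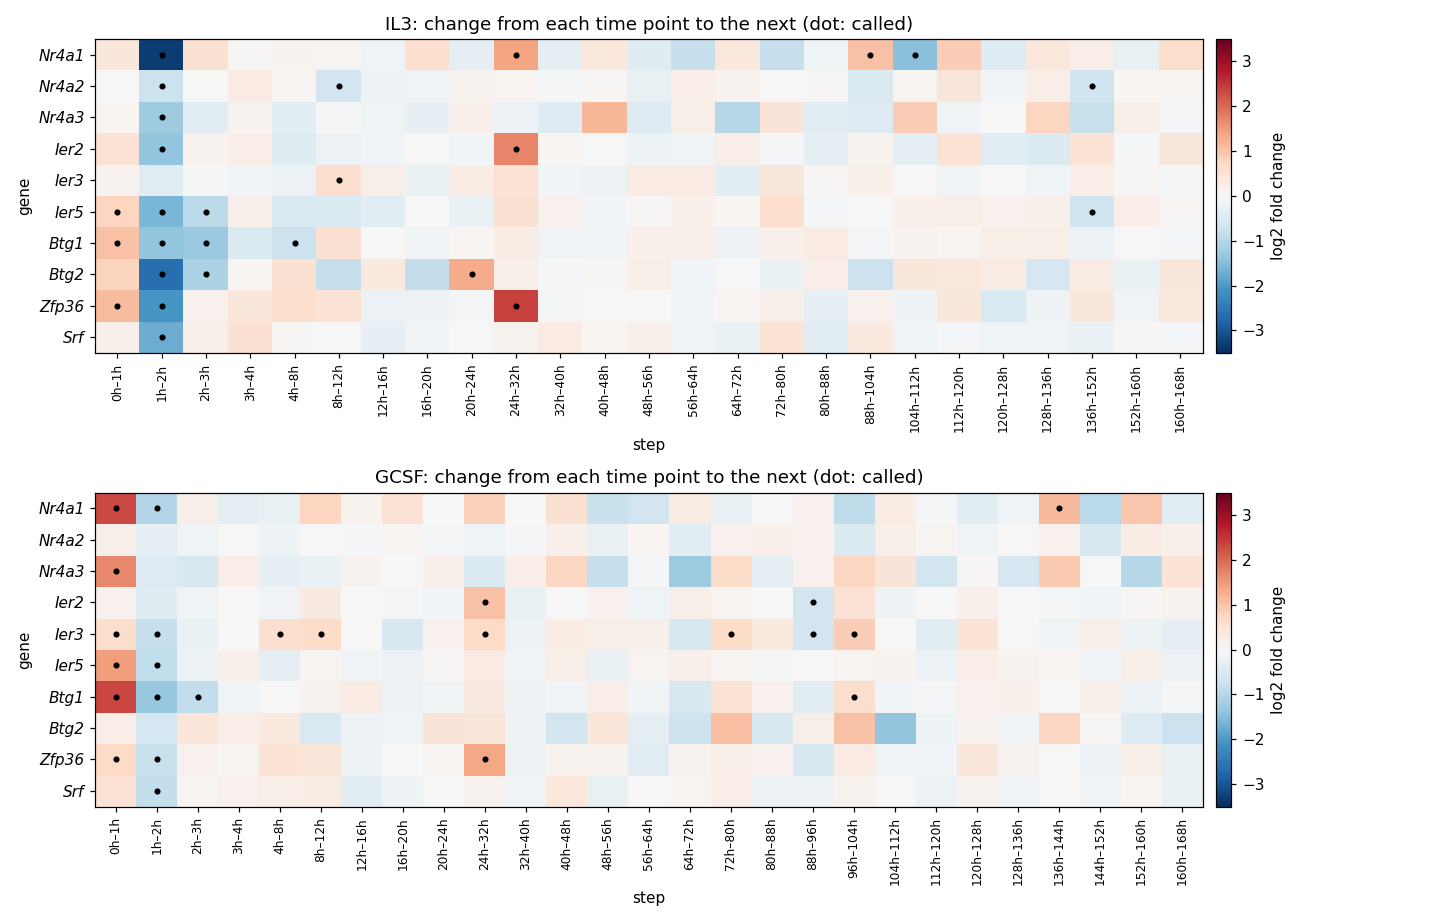
Log2 fold change from each time point to the next (color, scale on the right) for the 10 genes (rows) over the steps of the IL3 course (upper) and of the GCSF course (lower), with a dot where the step was called. The first and second steps hold 12 calls in each medium, the step from 2h to 3h holds 3 in IL3, all lower, and that from 24h to 32h holds 3 in each medium, all higher.

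Over all consecutive steps the 10 genes had 26 calls of 250 in IL3 (9 higher, 17 lower) and 24 of 270 in GCSF (15 higher, 9 lower). Across the steps, between 0.0976% and 16% of all genes were called in IL3 and between 0.0115% and 6.05% in GCSF. Of the calls in IL3, 12 were in the first 2 steps, and of those in GCSF also 12. Pooled over steps, 3.65% of all gene and step pairs were called in IL3 and 1.81% in GCSF. Ier3 had the most calls in GCSF, 8, of which 6 were higher, and 1 in IL3. Nr4a2 and Btg2 had 0 calls in GCSF. The moderated F test of limma was joined with a log2 fold change over 0.58 against undifferentiated cells at 1 or more time points. By this rule all 10 genes changed over each course, where 69.7% of all genes did so in IL3 and 62.5% in GCSF. For GCSF the groups included GCSF 0h, where all 10 genes were already called lower than in undifferentiated cells. The GCSF result therefore cannot tell a change under OHT from that of the pre-treatment.

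Beyond 32h the ends of the courses were compared. In IL3, Ier5 rose from 1542, 1496 and 1445 at 32h to 3369, 3097 and 3608 at 168h, a log2 fold change of 1.17 ± 0.10 (limma, adjusted p = 6.159e-20). The rise was not steady, since Ier5 reached a mean of 4481 ± 410.1 (SD, n = 3) at 136h and had 2771 ± 224 (SD, n = 3) at 152h. From 136h to 152h, with IL3 144h left out between them, Ier5 (-0.69) and Nr4a2 (-0.71) were called lower, where 16% of all genes were called. The call of Ier5 was lost without replicate 3 (-0.58) and that of Nr4a2 without replicate 1 (-0.56), both under the threshold of size. Btg1 rose by 0.67 ± 0.09 from 32h to 168h and Nr4a1 fell by 0.88 ± 0.35. Ier5, Btg1 and Nr4a1 were the 3 genes called over the whole span, where 16.4% of all genes were. Ier5 is known as a p53 target. Of the 9 further p53 targets tested, 7 rose over this span and 0 fell, with changes between 0.86 and 1.07 for Phlda3, Trp53inp1, Bbc3 and Eda2r. Whether p53 had a part in the rise of Ier5 was not tested. In GCSF the span held 3 calls, Ier3 higher (0.70 ± 0.12), Nr4a1 lower (-1.26 ± 0.35) and Btg2 lower (-1.68 ± 0.38), where 13.7% of all genes were called, and 2 of the 9 p53 targets fell and 0 rose. Btg2 had 3.94, 3.91 and 8.56 at GCSF 168h, close to the limit of 3 reads, which was reached in 1 of these libraries. Without replicate 1 the falls of Nr4a1 were not called in IL3 (-0.56) or GCSF (-0.89), and without replicate 2 neither were that in IL3 (-0.89) and the rise of Ier3 in GCSF (0.58). These spans too were chosen after the values had been seen.

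Against undifferentiated cells, 9 of the 10 genes differed at IL3 168h, 2 higher and 7 lower, where 25.4% of all genes were called. Zfp36 had 2309.9, 2404 and 2509 against 377, 354 and 397 (log2 fold change 2.68 ± 0.08, limma, adjusted p = 9.81e-57). Ier3 had 4524, 4549 and 4642 against 2006, 2032 and 1938 (1.2 ± 0.12, limma, adjusted p = 4.515e-17). The groups did not overlap in either. Nr4a3 (-2.30), Btg2 (-1.88), Ier5 (-1.55), Nr4a2 (-1.53), Nr4a1 (-1.51), Btg1 (-1.47) and Srf (-1.25) were lower. Ier2 had a change of 0.23. The change of Zfp36 at 24h was 0.18, against 2.40 for the step between 24h and 32h.

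At GCSF 168h, 8 of the 10 differed from undifferentiated cells, 1 higher and 7 lower, where 39.1% of all genes were called. Zfp36 was higher (1.46 ± 0.08, limma, adjusted p = 2.322e-33). Btg2 (-4.12), Ier5 (-2.69), Nr4a3 (-2.59), Btg1 (-2.55), Nr4a1 (-2.06), Nr4a2 (-1.69) and Srf (-1.43) were lower. Ier3 (-0.22) and Ier2 (-0.30) were not called. This endpoint shares its undifferentiated libraries with the IL3 endpoint.

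Against GCSF 0h the direction was largely the opposite. At GCSF 168h, 6 of the 10 genes were higher and 2 lower than before OHT, where 24.8% of all genes were called. Zfp36 had 1054, 999 and 1058 against 246, 215.1 and 194 (log2 fold change 2.25 ± 0.08, limma, adjusted p = 1.175e-49). Nr4a1 (1.81), Ier3 (1.77), and Btg1, Ier2 and Ier5 (each 0.69) were also higher, and Btg2 (-1.07) and Nr4a2 (-0.86) lower. Of these, Zfp36 and Nr4a1 had been called higher by 24h, and Ier3 was higher over the trypsin libraries alone, from 32h to 168h. Ier2, Ier5 and Btg1 were called in neither span. The step from 24h to 32h lies between these spans, and there Ier2 was called higher (1.03), as were Zfp36 and Ier3. The fall of Btg2 was not called without replicate 1 (-0.72) or replicate 2 (-0.71).

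Over the 25 time points that the media share, 5 of the 10 genes were lower in GCSF and 0 higher, where 24.5% of all genes were called and 15.1% were called lower. Ier3, the apoptosis regulator, had the largest difference (log2 fold change -1.39 ± 0.02, limma, adjusted p = 5.194e-86), with a mean of 1310.4 in GCSF and 3174 in IL3. Btg1 (-1.0), Ier5 (-0.99), Btg2 (-0.92) and Zfp36 (-0.69) were the others. Ier2 had -0.43 and Nr4a2 -0.32, with small adjusted p (7.096e-48 and 2.625e-20 in limma) but under the threshold of size. Srf had -0.07, Nr4a1 -0.12 and Nr4a3 -0.14.

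The lower level of Ier3 was found at 25 of 25 time points. Btg1 was called lower at 22, Ier5 at 19, Zfp36 at 15, Btg2 at 13, Ier2 at 8, Nr4a2 at 5, Nr4a1 at 2 and Nr4a3 at 1, and Srf at 0. None of the 110 calls was higher in GCSF. Nr4a3 was called higher in GCSF at 104h with a pseudocount of 0.5 (1.24) or without replicate 3 (1.87), and at 40h without replicate 1 (1.22). Pooled over time points, 12.7% of all gene and time point pairs were called lower. At single time points between 5.89% and 19.7% of all genes were called lower. Of the 15 calls of Zfp36, 14 came at 32h or later and 1 at 1h, and its difference was -0.25 over 1h to 24h and -0.94 over 32h to 168h. Over 1h to 24h 4 of the 10 genes were lower in GCSF and over 32h to 168h 5, where 24.3% and 27.8% of all genes were called, and 5 were lower without 120h (24.2%). Ier3, Ier5, Btg1 and Btg2 were called both before and after the start of trypsin, with -1.61 and -1.26 for Ier3, -1.04 and -0.96 for Ier5, -1.01 and -1.0 for Btg1, and -0.63 and -1.09 for Btg2, whose earlier value was under the threshold of size without replicate 1 (-0.57) or 3 (-0.54). Ier5 was not called from 12h to 32h, with 1034, 1064 and 991 in IL3 and 858, 881 and 1003 in GCSF at 24h, groups that overlapped.

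**Figure D4:**
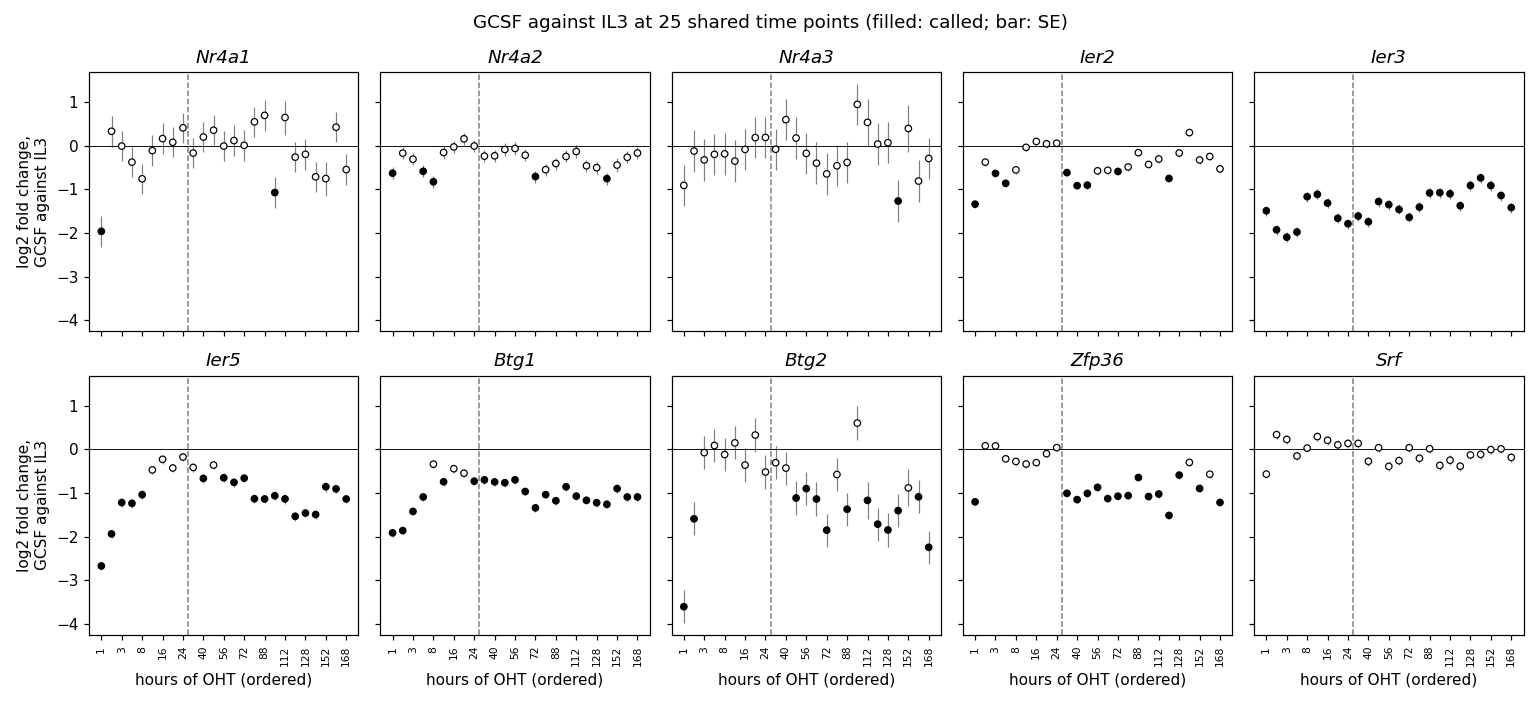
Log2 fold change of GCSF against IL3 (y axis) at each of the 25 shared time points (x axis, ordered), 1 panel for each gene, with bars of 1 SE. Filled points were called, and the dashed line marks the start of trypsin detachment. The filled points all lie below 0, with 25 for Ier3 and 0 for Srf.

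The other immediate-early lists were also mostly lower in GCSF over these time points. Of the AP-1 factors 8 of 11 were lower and 1 higher, of the EGR and NAB genes 4 of 6 lower, and of the MAP kinase feedback genes 6 of 9 lower. The largest differences were in Egr1 (-2.96), Egr2 (-2.92) and Dusp4 (-2.83). Of the p53 targets 7 of 9 were lower. Of 8 neutrophil markers 7 were higher in GCSF, led by Mpo (2.19), and of 6 macrophage and monocyte markers 3 were lower and 1 higher. Their part in the differences of the 10 genes was not tested, and in bulk libraries fewer cells of a type and less RNA per cell cannot be told apart. Among the relatives of the members Zfp36l1 (-1.11) and Tob1 (-0.82) were lower, and of 10 CCR4-NOT subunits 0 were called.

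The times that followed fresh OHT by 8 h were compared with the mean of both neighbouring times. At 48h 0 of the 10 genes were called by limma in either medium (Srf in GCSF, with 0.32 ± 0.09, had an adjusted p of 0.0136 under the threshold of size), where 1.6% of all genes were called in IL3 and 0.35% in GCSF. At an unadjusted p under 0.05 there were 1 in IL3 and 4 in GCSF. Of those past the threshold of size, the one with the lowest adjusted p was Nr4a1, with a log2 fold change of 0.66 ± 0.30 in GCSF (limma, adjusted p = 0.171), which edgeR and DESeq2 called (adjusted p = 0.0379 and 0.0206). It had its highest mean of the GCSF course there, 78.1 ± 13.7 (SD, n = 3).

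At 96h, Nr4a1 was higher in IL3 than at 88h and 104h (1.23 ± 0.30, limma, adjusted p = 2.895e-04) and Btg1 lower (-0.77 ± 0.08, limma, adjusted p = 3.049e-16), where 17.5% of all genes were called. In GCSF, Ier3 was lower (-0.75 ± 0.11, limma, adjusted p = 4.655e-08), where 4.65% were called. The GCSF 96h group had 2 libraries, and without replicate 2 the change of Ier3 was -0.53 and under the threshold of size. Ier2 (0.45 in IL3 and -0.57 in GCSF) and Zfp36 (0.33 and -0.42) were under the threshold of size in each medium, and their difference between the media was called (-1.02 ± 0.11 and -0.75 ± 0.11, GCSF minus IL3), where 7.76% of all genes were.

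At 144h Nr4a1 was higher than its neighbours in both media, by 0.80 ± 0.30 in IL3 and 1.05 ± 0.31 in GCSF (limma, adjusted p = 0.0234 and 0.0151). Ier2 was higher in IL3 (0.91 ± 0.07, limma, adjusted p = 1.237e-21), and its difference between the media was -0.87 ± 0.11 (limma, adjusted p = 1.212e-11). Without replicate 1 or 3 the change of Nr4a1 was no longer called in either medium (0.58 and 0.75 in IL3, 0.79 and 1.06 in GCSF). Here 15.4% of all genes were called in IL3, 1.85% in GCSF and 9.66% for the difference. The IL3 96h and 144h libraries are those that the study left out as outliers, so these values describe libraries that stood apart across many genes. At 120h, where the 6 libraries carry another name prefix than the others, 0 of the 10 genes were called by limma, edgeR or DESeq2 in either medium (1.7% of all genes in IL3 and 2.01% in GCSF by limma), and 4 in IL3 and 3 in GCSF had an unadjusted p under 0.05 in limma. Ier2 and Zfp36 had changes of 0.44 and 0.46 there in IL3.

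**Figure D5:**
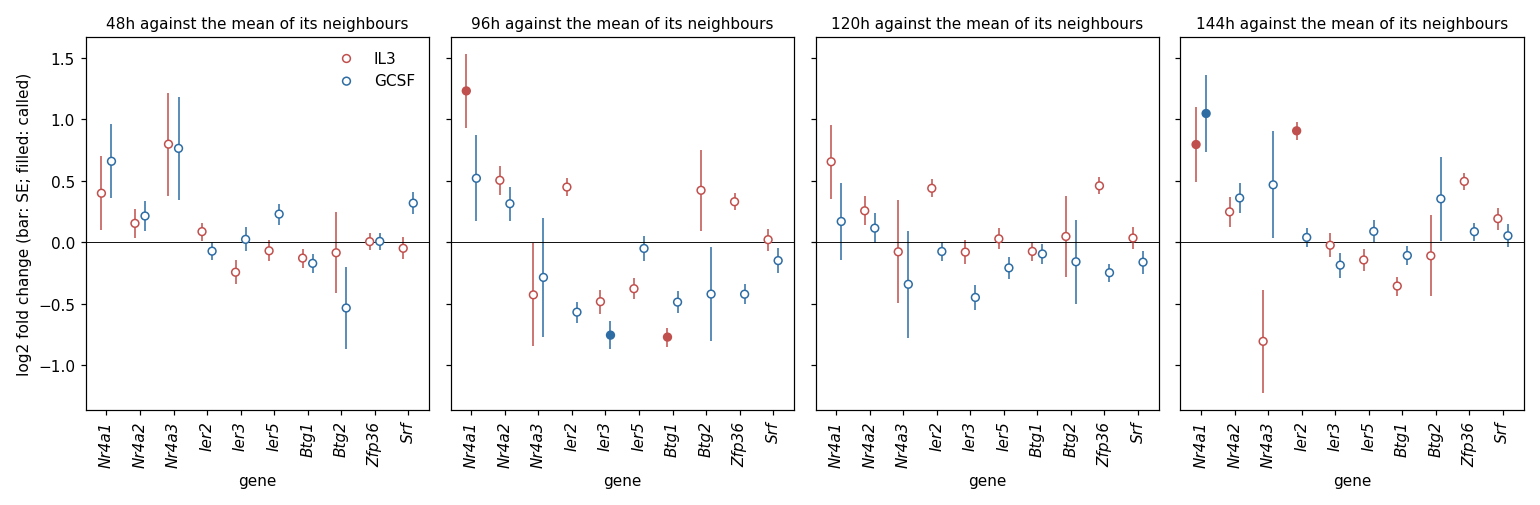
Log2 fold change (y axis, bars of 1 SE) of each gene (x axis) at 48h, 96h, 120h and 144h against the mean of the time points before and after, IL3 in red and GCSF in blue. Filled points were called. Nr4a1 is filled at 96h in IL3 and at 144h in both media, and no point is filled at 48h or 120h.

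The 10 genes did not share 1 course. Over the 54 group means the correlation of log2 values between pairs of them ranged from -0.477 to 0.928 (Pearson's r, median 0.422), and 6 of the 45 pairs were negative. These are descriptions, since the group means share a time series and the step at 24h. Ier5 and Btg1 were the closest pair (r = 0.928). Btg2 was near both over the 54 groups (0.746 and 0.753) and within IL3 (0.758 and 0.808). Within GCSF it was near neither (-0.181 for Ier5 and -0.0163 for Btg1). A second set was Ier2 with Zfp36 (0.819) and Ier3 with Zfp36 (0.79). Nr4a2 and Nr4a3 ran against Zfp36 (-0.463 and -0.477). Within GCSF alone, Nr4a2 against Zfp36 reached -0.819 and Ier2 with Zfp36 0.906 over 28 groups.

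The genes outside the list whose courses were most like these, by r over the same 54 group means, were different for each set. For Ier2 they were Junb (0.885), Fos (0.866) and Egr1 (0.861). For Nr4a1 they were Fosb (0.626), Gtf2b (0.592) and Filip1l (0.591), and for Btg2 they included Oat (0.805) and Ptgs2 (0.803). For Ier5 they were Ndel1 (0.966), Mdm2 (0.958) and Zbtb21 (0.948), and for Btg1 Tcim (0.939), Dusp10 (0.938) and Dusp16 (0.937). Ier3 was nearest to Tex264 (0.954) and Zfp36 to Lilra6 (0.923) and F3 (0.901). The closest for Nr4a2 was Gorasp2 (0.885), for Nr4a3 Zfp948 (0.788) and for Srf Rpusd3 (0.7).

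In order of level the 10 genes could be compared only within a gene, because the table gives no values per length. Within genes, and with IL3 96h and 144h left out, the highest group mean was at IL3 1h for 7 of the 10 and in undifferentiated cells for Nr4a2, where it was 265 ± 35.2 against 262 ± 12.9 (SD, n = 3) at IL3 1h, values that overlapped. For Zfp36 it was at IL3 120h (2485 ± 39.4, SD, n = 3) and for Ier3 at IL3 160h (4744 ± 232, SD, n = 3). With those groups included, the highest mean was at IL3 96h for Zfp36 (2562 ± 110.6, SD, n = 3) and at IL3 144h for Ier2 (5074 ± 139.2, SD, n = 3), against 4930.4 at IL3 1h. The lowest group means were at GCSF 0h for Nr4a1 (5.45 ± 1.41, SD, n = 3), at IL3 2h for Zfp36 and Srf, and at GCSF 168h for Btg2 (5.47 ± 2.67, SD, n = 3). Nr4a3 was at 3 reads or fewer in 8 libraries (IL3 96h and 144h aside) and Btg2 in 2. At GCSF 0h Nr4a1 was counted with 5 to 8 reads, Nr4a3 with 7 to 11 and Btg2 with 7 to 18.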

How the data were processed

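RNA-seq of polyA RNA was read from the table of normalized counts that the authors deposited. Per the study's methods and the labels, the authors quantified reads against GRCm38 with Salmon and divided each library's counts by its DESeq2 size factor, so the deposited signal values are counts on a common scale and not raw counts. The strandedness and the summing of transcripts to genes are not given in the sources used here. Of the nonzero values 100% were whole multiples of 1 read's worth (largest relative deviation 9.66e-15), and reads recovered in this way gave the depth and the count tests. Counting error alone sets the limit of 3 reads.

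The 10 genes and the gene lists were chosen with earlier results of these data known. All 10 genes are named, each with 1 or more of the 3 other genes of highest Pearson's r over group means, and up to 4 called genes of each list. Libraries were grouped by the labels, with GCSF 0h taken as free of OHT. limma 3.58.1 in R 4.3.3 was fitted to log2(normalized count + 1) with 1 mean per group and a trended prior, keeping each gene that reached 5 in any library (17414 genes without IL3 96h and 144h, 17439 with them for the comparisons with neighbouring times). Alternatives were pseudocounts of 0.5 and 5, no filter, a mean of at least 10, upper-quartile scaling, leaving out replicates, the replicate block, only the libraries compared, and edgeR 4.0.16 and DESeq2 1.42.0 on the recovered reads. On simulated data for the first hour in GCSF, run on 19029 genes, limma recovered 92 of 100 genes changed 2-fold and 100 of 100 changed 4-fold. The changed genes all had higher means at GCSF 0h than Nr4a1, Nr4a3 and Btg2 (5.45, 7.95 and 12.7), so this recovery does not cover those genes. Of genes simulated without a change, limma called 38 of 18829 in GCSF and 85 of 19029 in IL3. Of these, 5 and 3 had a mean of at least 10. Replicate numbers did not pair libraries (mean r of deviations 0.000308 for equal numbers). RefSeq promoters and GENCODE M21 loci, both on GRCm38, gave sequence and position.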

Additional observations from a re-analysis of the deposited data

Results flagged for a closer look

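Effects that differed between the 2 media by the test of the difference itself (GCSF minus IL3, log2 scale, limma) are listed here as values. For the first hour of OHT these were Nr4a1 (1.92), Btg1 (1.33) and Ier5 (0.71). For the step from 1h to 2h they were Nr4a1 (2.29), Btg2 (2.01), Zfp36 (1.28), Ier2 (0.96), Srf (0.90) and Ier5 (0.73), and the drop was the larger one in IL3 for each. For the step from 24h to 32h they were Zfp36 (-1.05) and Ier2 (-0.67), and the rise was the larger one in IL3. At 96h against its neighbours they were Ier2 (-1.02) and Zfp36 (-0.75), and at 144h Ier2 (-0.87). The OHT dose differed between the media, and so did the starting levels for the first hour and for the step from 1h to 2h. The comparisons at 96h and 144h rest on the IL3 libraries that the study left out.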

How the results depend on the processing

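Across 286 counts of called genes recomputed with the other settings, filters, scalings and tests, 276 stayed within 1.5 times the reported count, and of 12720 values of single genes 12549 kept their side of the thresholds, 90 lost a call, 81 gained one and 0 reversed. At 48h in GCSF 1 gene was called, in place of 0, by edgeR, by DESeq2 and with only the libraries compared. At 144h in GCSF 0 were called, in place of 1, with only the libraries compared. Leaving out 1 replicate of every group, where groups of 2 then hold 1 library assumed to vary like the others, gave 0 to 1 called genes at 144h in GCSF, 1 to 2 at 144h in IL3 and 0 to 2 at 96h in GCSF. The cause was not tested. Comparisons within libraries handled alike were chosen after seeing the data. They have other baselines or shorter spans than the endpoints and do not repeat them. From 32h to 168h, with trypsin, 3 genes were called in IL3 and 3 in GCSF. Against undifferentiated cells at 24h, without trypsin, 8 were called in IL3 and 9 in GCSF. From GCSF 0h to GCSF 24h 2 were called. The IL3 endpoint had 9 called genes, the GCSF endpoint 8, and OHT in GCSF 8. The median r between the 10 genes was 0.607 without a log in place of 0.422, and 0.386 to 0.417 without 1 replicate. With the replicate block the steps in GCSF held 25 calls in place of 24, and the other 23 counts fitted with it were equal to the reported ones. The numbers do not pair the libraries. Depth limits Nr4a1, Nr4a3 and Btg2 most, which at GCSF 0h were counted with 5 to 8, 7 to 11 and 7 to 18 reads.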
